A study of Homo sapiens with 4 samples.

Results

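Transcripts of 10 genes of the Hippo pathway were examined on 4 Affymetrix arrays of human breast cancer cell lines. They were the angiomotin genes AMOT, AMOTL1 and AMOTL2, the coactivator genes YAP1 and WWTR1 (WWTR1 encodes TAZ), the DNA-binding partner genes TEAD1 and TEAD4, and the target genes CCN1, CCN2 and ANKRD1. The genes were chosen from a list of the pathway, and AMOT because it was among the largest increases in MDA-MB231. All 10 were among the 18417 genes named on the array, each by 1 probe set, and all 10 were among the 15946 that passed the filter on dim probe sets. The groups were MDA-MB231 cells expressing FBP1, MDA-MB231 control cells, Hs578T cells expressing FBP1 and Hs578T control cells, with 1 array in each. FBP1 encodes the gluconeogenic enzyme fructose-1,6-bisphosphatase, and the FBP1 cells were stable clones. The labels class both lines as basal-like breast cancer, and all cells were grown in medium with serum and harvested while dividing. The sources used here do not say what the control cells carried or how many clones an array held, so the effect of FBP1 and a difference between clones cannot be told apart. On bulk RNA, fewer cells that express a gene and less RNA per cell cannot be told apart either.

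The Hippo pathway is a chain of kinases that phosphorylates YAP and TAZ and keeps them out of the nucleus. When the kinases are inactive, YAP and TAZ enter the nucleus, bind TEAD proteins and switch on genes such as CCN1, CCN2 and ANKRD1. Angiomotins are scaffold proteins of cell junctions and actin filaments that bind YAP and TAZ and can hold them in the cytoplasm.

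FBP1 itself had a log2 intensity of 13.07 in MDA-MB231 with FBP1, against 9.83 in the MDA-MB231 control, and 13.35 in Hs578T with FBP1, against 6.35 in the Hs578T control. Array medians were near-equal, at 7.83 to 7.86. Vimentin (VIM), which marks mesenchymal cells, was bright on all 4 arrays (13.71 to 13.72), and EGFR, a marker of basal-like tumours, lay at 10.63 to 11.05. The basal keratin KRT5 was dim on all 4, at 6.80 to 6.93, near the filter level of 6.16, whereas the basal keratin KRT14 lay at 8.45 to 9.62. Of 6 luminal markers tested, 3 were called higher in MDA-MB231 in a limma fit of the line difference, against 21.8% of all tested genes. They were EPCAM (9.43 and 9.47 in MDA-MB231 with FBP1 and control, against 6.26 and 6.55 in Hs578T with FBP1 and control), GATA3 and CDH1. The rest were not called: ERBB2 (line difference 0.31), FOXA1 (−0.33) and ESR1 (−0.07). The oestrogen receptor gene ESR1 was dim on all 4 arrays, at 6.64 to 6.80. All 5 fibroblast markers (COL1A1, DCN, PDGFRA, PDGFRB and THY1) were called lower in MDA-MB231, against 19.0% of all tested genes. DCN, at 5.25 and 5.09 in MDA-MB231 with FBP1 and control, passed the filter only through Hs578T. The direction of its difference was therefore fixed by the filter. The log2 of the summed intensity of the 5 markers was 9.83 on both MDA-MB231 arrays. It was 13.76 and 13.71 on the Hs578T arrays with FBP1 and without it.

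AMOT separated the MDA-MB231 arrays from each other. Its log2 intensity was 7.98 in MDA-MB231 with FBP1, against 6.53 in the MDA-MB231 control, and 6.58 in Hs578T with FBP1, against 7.04 in the Hs578T control. The MDA-MB231 FBP1 array was the highest of the 4, and the other 3 lay between 6.53 and 7.04, near the dim end of the array. AMOT was 2.73-fold higher with FBP1 in MDA-MB231 (log2 difference 1.45) and 0.726 times the control in Hs578T (−0.46). This MDA-MB231 contrast chose the gene and rests on 1 array per group, so the values are a description without a test.

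The AMOT difference in MDA-MB231 was set beside those of other genes on the same arrays. It ranked 5 of 15946, between NETO2 (1.61) and KLHL9 (1.103). In MDA-MB231, 95% of all tested genes differed by −0.32 to 0.33. Of 2690 genes within 0.5 log2 of the mean AMOT level, 95% differed by −0.36 to 0.40, and AMOT was the 1 gene higher by 1.45 or more. AMOT was chosen for a large increase in this contrast, so its rank and its place beyond these ranges follow from the choice. In Hs578T, 95% of the 15946 genes differed by −0.50 to 0.47, and the AMOT value of −0.46 lay inside that range. The difference of 1.91 between the lines' changes has no residual degrees of freedom and was not tested.

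Some genes that were dim in MDA-MB231 and bright in Hs578T were higher on the MDA-MB231 FBP1 array than on its control. Among genes at or below the AMOT level in the MDA-MB231 control, 44 were at least 16-fold brighter in the Hs578T control, and 34 of these, or 77.3%, were higher with FBP1 in MDA-MB231, with a median log2 difference of 0.26. These genes were picked in part for a low MDA-MB231 control value, which by itself favours a positive difference. The filter used the mean of all arrays, so a gene below the filter level in MDA-MB231 could pass through Hs578T. Their share was therefore not a test of a common change with FBP1. Of the 882 other genes at or below that level, 60.9% were higher, with a median of 0.04, beside 48.2% and −0.005 over all tested genes. AMOT was not among the 44 because its gap between the control arrays was 1.43-fold, short of the 16-fold rule. Its absence therefore does not show whether it shares their pattern. Its MDA-MB231 control value minus its Hs578T control value was −0.52 on the log2 scale, and its level with FBP1 in MDA-MB231 was above both Hs578T arrays.

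AMOT lies on the X chromosome. Of its 3 nearest named protein-coding neighbours on each side in RefSeq order, HTR2C and LRCH2 passed the filter, and TRPC5, RTL4, LHFPL1 and IL13RA2 were below it. LRCH2 had the same sign as AMOT in each line: its log2 difference was 0.51 in MDA-MB231, at 5.43 with FBP1 against 4.92 in the control, and −0.72 in Hs578T, at 7.08 with FBP1 against 7.80 in the control. Both MDA-MB231 values of LRCH2 were below the filter level, and the gene passed through its Hs578T values. Its MDA-MB231 difference is between dim values, so whether LRCH2 changed with AMOT there cannot be told. HTR2C differed by −0.03 in MDA-MB231 and 0.27 in Hs578T. The 4 dim neighbours differed by −0.18 to −0.02 in MDA-MB231 and by −0.74 to 0.17 in Hs578T. The genes whose 4 values were most like those of AMOT, after each gene was centred on its own mean, were NRN1 (Euclidean distance 0.60), IRS4 (0.61), BEX4 (0.68), TSPAN7 (0.70) and RTL1 (0.71), out of 15945 genes compared over 4 arrays. NRN1 encodes the neuronal surface protein neuritin and IRS4 an insulin receptor substrate. With FBP1 in MDA-MB231, NRN1 was higher by 0.92 and IRS4 by 0.81 on the log2 scale. The IRS4 value in the MDA-MB231 control, 6.08, was below the filter level. These genes were picked for values like those of AMOT, so higher values with FBP1 in MDA-MB231 follow from the choice. IRS4, BEX4 and TSPAN7 are X-linked, as were 558 of the 15946 tested genes.

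The other angiomotins differed less between FBP1 and control cells. AMOTL1, which encodes a junction protein of the same family, had log2 intensities of 9.71 with FBP1 and 9.63 in the control in MDA-MB231, and 9.93 with FBP1 and 9.68 in the control in Hs578T. The highest value was Hs578T with FBP1, and the other 3 arrays spanned 0.0736. AMOTL2, an angiomotin that is also a YAP and TAZ target, had 9.56 with FBP1 and 9.46 in the control in MDA-MB231, against 9.23 with FBP1 and 9.09 in the control in Hs578T. Both MDA-MB231 arrays lay above both Hs578T arrays. The FBP1 minus control differences were 0.07 for AMOTL1 and 0.10 for AMOTL2 in MDA-MB231, and 0.26 and 0.14 in Hs578T.

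**Figure D1:**
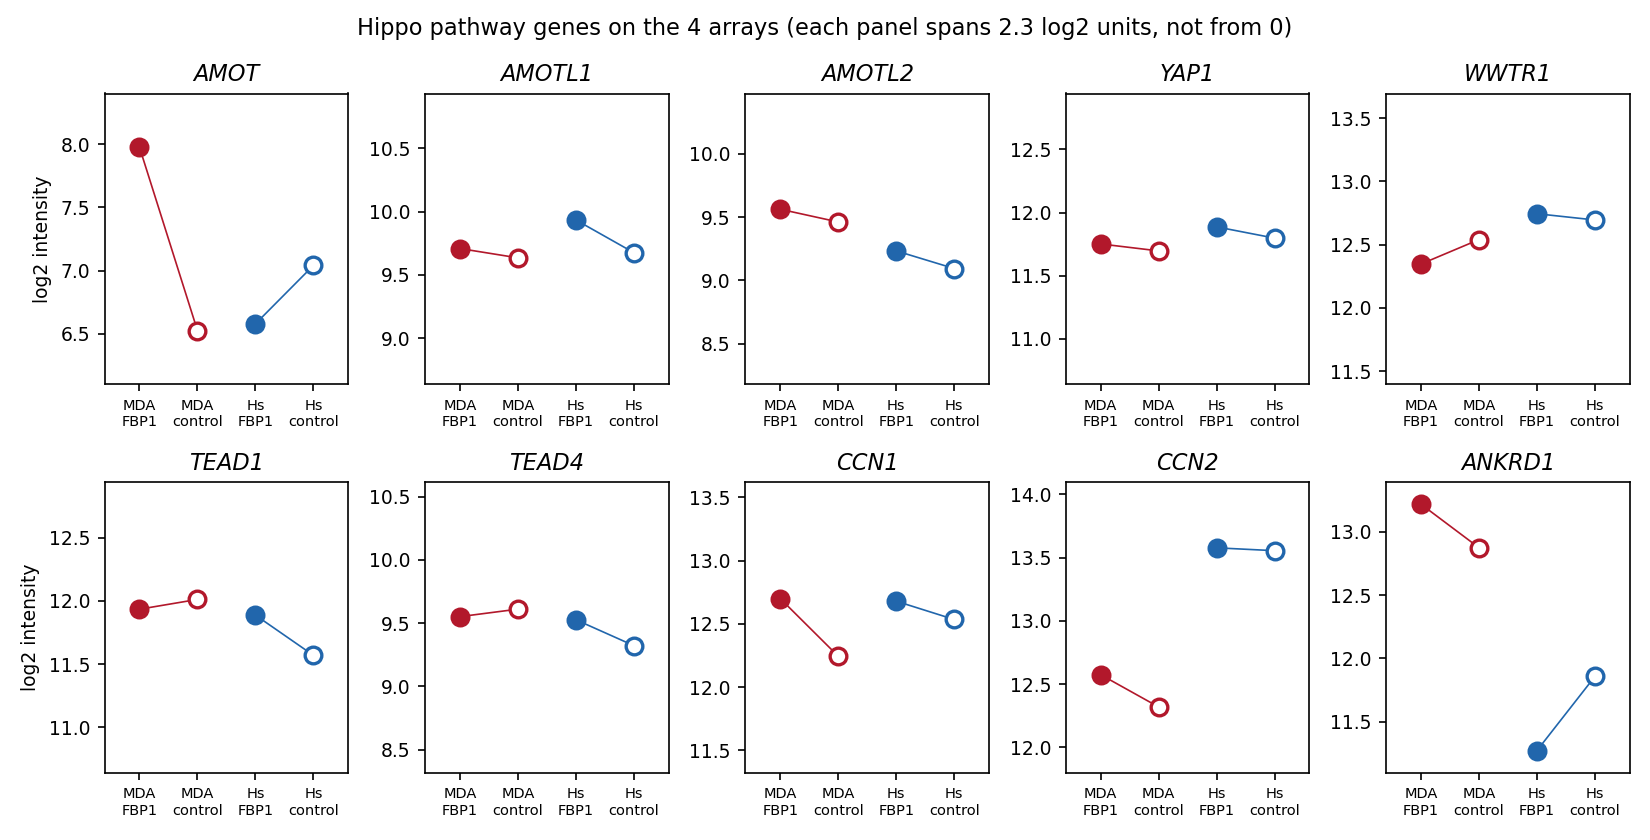
Log2 intensity (vertical axis, a 2.3 log2 window in each panel, not from 0) of the 10 genes on each array, with MDA-MB231 in red, Hs578T in blue, FBP1 filled and control open; each point is 1 array and lines join the arrays of a line. AMOT at 7.98 on the MDA-MB231 FBP1 array stands above its other 3 values, whereas CCN2 and ANKRD1 separate the lines in opposite directions.

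Of the coactivator transcripts, YAP1 varied less over the 4 arrays than WWTR1, whose values spanned 0.40. YAP1 had log2 intensities of 11.75 with FBP1 and 11.70 in the control in MDA-MB231, and 11.89 with FBP1 and 11.80 in the control in Hs578T. The 4 values spanned 0.19, the smallest range of the 10 genes. WWTR1 had 12.35 with FBP1 and 12.54 in the control in MDA-MB231, and 12.74 with FBP1 and 12.69 in the control in Hs578T. Both MDA-MB231 arrays were below both Hs578T arrays, and the FBP1 array of MDA-MB231 was the lowest. These are levels of mRNA. YAP and TAZ are controlled largely by phosphorylation, location and stability of the proteins, which an expression array does not measure.

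TEAD1 and TEAD4 encode the factors that carry YAP and TAZ to DNA. TEAD1 had log2 intensities of 11.93 with FBP1 and 12.01 in the control in MDA-MB231, and 11.89 with FBP1 and 11.57 in the control in Hs578T. TEAD4 had 9.55 with FBP1 and 9.61 in the control in MDA-MB231, and 9.53 with FBP1 and 9.32 in the control in Hs578T. For both genes the Hs578T control was the lowest array, and the other 3 arrays spanned 0.124 for TEAD1 and 0.0837 for TEAD4. FBP1 minus control was −0.08 for TEAD1 and −0.06 for TEAD4 in MDA-MB231, and 0.32 and 0.20 in Hs578T.

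The 3 target genes were bright in both lines. CCN1 and CCN2 encode secreted matrix proteins formerly called CYR61 and CTGF, and ANKRD1 a muscle ankyrin repeat protein that also acts in the nucleus. CCN1 had log2 intensities of 12.70 with FBP1 and 12.24 in the control in MDA-MB231, and 12.68 with FBP1 and 12.53 in the control in Hs578T. The MDA-MB231 control was the lowest of the 4 and the lines overlapped. CCN2 had 12.57 with FBP1 and 12.32 in the control in MDA-MB231, against 13.58 with FBP1 and 13.55 in the control in Hs578T. ANKRD1 had 13.22 with FBP1 and 12.88 in the control in MDA-MB231, against 11.27 with FBP1 and 11.86 in the control in Hs578T. The lines did not overlap for CCN2 or for ANKRD1, and their order was opposite: CCN2 was lower and ANKRD1 higher in MDA-MB231. The lines did not overlap for AMOTL2, YAP1, WWTR1, TEAD1 or TEAD4 either. With 2 arrays per line such a separation is easily met, and its share over all tested genes was not counted.

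With FBP1, all 3 targets were above control in MDA-MB231, by 0.46 for CCN1, 0.34 for ANKRD1 and 0.26 for CCN2 on the log2 scale. These values lay at percentiles 99.1, 97.8 and 95.2 of all tested genes in that line, and those of CCN1 and ANKRD1 were outside the central 95% range. In Hs578T the differences were 0.14 for CCN1, 0.02 for CCN2 and −0.59 for ANKRD1, the last at percentile 1.67. None of the targets reached 1.5-fold in MDA-MB231, where 0.627% of all tested genes did in either direction.

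At 1.5-fold (0.585 log2), 1 of the 10 genes, AMOT, was higher with FBP1 in MDA-MB231, where 0.301% of all tested genes were that much higher, and the contrast chose AMOT. None was lower there, against 0.326% of all genes. In Hs578T none of the 10 was 1.5-fold higher, against 1.39% of all genes, and 1, ANKRD1, was 1.5-fold lower, against 1.69%. The ANKRD1 value of −0.59 lay at the threshold and was −0.58, just inside it, after quantile normalization. The median difference over the 10 genes was 0.09 in MDA-MB231 and 0.11 in Hs578T, beside −0.005 and 0.02 over all tested genes. Each line had 1 array per group, so none of these differences has a replicate check.

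**Figure D2:**
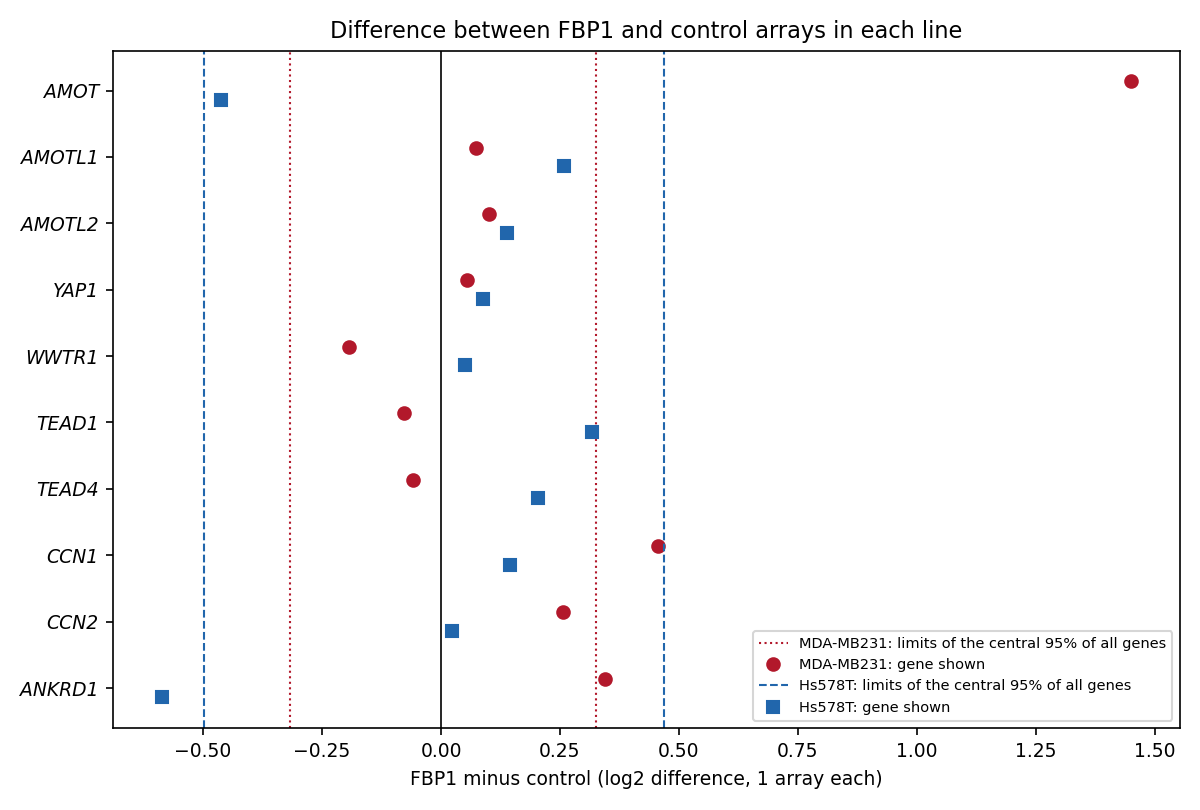
FBP1 minus control (horizontal axis, log2 difference, 1 array each) for the 10 genes, with MDA-MB231 as red circles and Hs578T as blue squares; dotted and dashed lines mark the limits of the central 95% of all tested genes in MDA-MB231 and Hs578T. AMOT (1.45), CCN1 (0.46) and ANKRD1 (0.34) lie beyond the MDA-MB231 limit of 0.33, and ANKRD1 (−0.59) lies beyond the Hs578T limit of −0.50.

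TEAD proteins bind the letters GGAATG, the core of the element known as MCAT, so the promoters of the target genes were read for them. RefSeq windows of 250 bases before to 50 after a transcription start were matched for 7 of the 10 genes, with 9 windows in all (build GRCh38.p14). The sequences below are those of the targets that separated the lines, CCN2 and ANKRD1, of AMOTL2, and of AMOT, which had the largest FBP1 minus control difference of the 10 genes. Each is on the strand of its gene, 5′ to 3′, which is the minus strand of the genome for all 4, and capitals mark GGAATG or its reverse complement CATTCC.
CCN2 chr6:131951323-131951622: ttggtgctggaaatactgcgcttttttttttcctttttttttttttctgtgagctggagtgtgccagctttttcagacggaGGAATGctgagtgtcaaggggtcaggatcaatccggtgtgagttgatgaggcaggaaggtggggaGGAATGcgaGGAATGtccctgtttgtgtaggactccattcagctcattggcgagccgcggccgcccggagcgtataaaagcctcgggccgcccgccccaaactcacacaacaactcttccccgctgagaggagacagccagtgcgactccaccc
ANKRD1 chr10:90921038-90921337: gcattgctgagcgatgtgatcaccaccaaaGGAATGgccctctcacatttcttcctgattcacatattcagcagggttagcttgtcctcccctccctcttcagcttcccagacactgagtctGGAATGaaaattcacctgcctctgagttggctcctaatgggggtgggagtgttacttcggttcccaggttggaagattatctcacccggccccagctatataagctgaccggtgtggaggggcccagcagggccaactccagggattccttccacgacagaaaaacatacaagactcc
AMOTL2 chr3:134374398-134374697: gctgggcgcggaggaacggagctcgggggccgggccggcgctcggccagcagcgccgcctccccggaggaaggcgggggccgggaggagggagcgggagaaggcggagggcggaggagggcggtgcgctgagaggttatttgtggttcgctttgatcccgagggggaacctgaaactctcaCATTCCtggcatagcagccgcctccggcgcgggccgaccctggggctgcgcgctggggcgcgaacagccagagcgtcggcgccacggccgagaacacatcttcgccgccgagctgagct
AMOT chrX:112840782-112841081: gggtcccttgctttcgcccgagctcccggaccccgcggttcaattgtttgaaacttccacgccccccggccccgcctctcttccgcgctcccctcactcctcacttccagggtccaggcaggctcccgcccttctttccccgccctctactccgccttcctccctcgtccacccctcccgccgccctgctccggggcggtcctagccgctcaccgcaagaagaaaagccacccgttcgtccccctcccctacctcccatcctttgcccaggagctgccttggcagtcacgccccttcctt

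The CCN2 window held 3 matches, starting at −169, −104 and −95 from the transcription start, and none overlapped another. The ANKRD1 window held 2, at −220 and −128, and the window of YAP1 1, at −162. AMOTL2 had 1 match, on the opposite strand at −69, in the window printed, and 0 in the window of its other start. The windows of AMOT and AMOTL1, and both of WWTR1, held 0. Of 35116 such windows in RefSeq, 14% held at least 1 match on either strand, 1.37% at least 2 and 0.128% at least 3. A match is a string of letters and shows neither binding nor its absence.

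**Figure D3:**
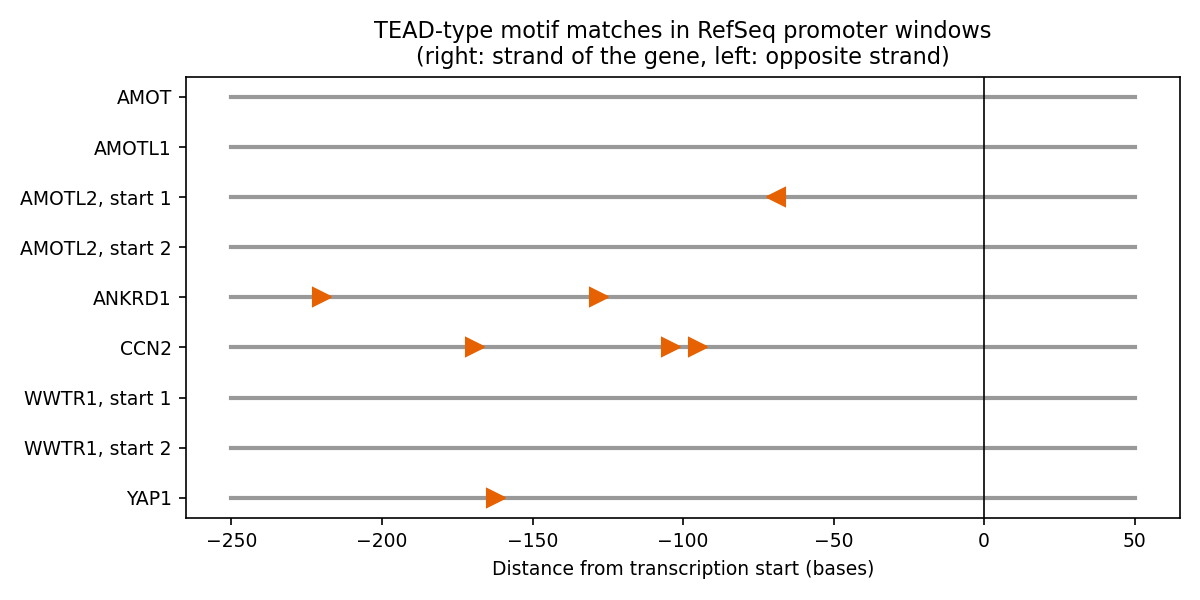
Position of GGAATG matches (triangles) in the 9 promoter windows of 7 genes, as distance in bases from the transcription start (horizontal axis); triangles pointing right are on the strand of the gene and those pointing left on the opposite strand. CCN2 has 3 matches and ANKRD1 2, and the AMOT row is empty.

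The difference between the lines was tested with limma across all 15946 genes, with terms for line and construct, so that each line had 2 arrays. The line difference was not the contrast that chose AMOT. It does include the MDA-MB231 FBP1 array, whose high AMOT value led to the choice, so for AMOT it is not independent of that choice. The arrays of a line are 1 culture with FBP1 and 1 without, and the p-values rest on 1 residual degree of freedom and a variance prior, not on repeated cultures. Of the 10 genes, 4 passed an adjusted p of 0.05, where 40.8% of all tested genes did. ANKRD1 and AMOTL2 were higher in MDA-MB231, against 21.8% of all genes, and CCN2 and WWTR1 lower, against 19.0%. The median line difference over the 10 genes was 0.02, beside −0.02 over all tested genes, and the median of its absolute size was 0.26, beside 0.24.

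ANKRD1 was 2.80-fold higher in MDA-MB231, with a mean log2 intensity of 13.05 against 11.56 in Hs578T (difference 1.48 ± 0.20 SE, limma adjusted p = 0.00226). CCN2 was lower in MDA-MB231, with a mean of 12.45 against 13.57 (−1.12 ± 0.08 SE, limma adjusted p = 0.000165). The calls of ANKRD1 and CCN2 held in all 12 alternative fits, which covered the filter, scaling, variance prior, probe set choice, model terms and each array left out. AMOTL2 was 1.27-fold higher in MDA-MB231 (0.35 ± 0.10 SE, limma adjusted p = 0.0357), and WWTR1 was lower (−0.28 ± 0.08 SE, limma adjusted p = 0.0429). The AMOTL2 and WWTR1 calls were near the threshold and did not hold with some arrays left out. Without the MDA-MB231 FBP1 array, limma adjusted p was 0.227 for AMOTL2 and 0.248 for WWTR1. Without the MDA-MB231 control array it was 0.132 and 0.0566. The AMOTL2 call was also lost without the Hs578T control (0.0761) and the WWTR1 call without the Hs578T FBP1 array (0.0664).

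The other 6 genes did not pass. AMOT had the widest error, with a line difference of 0.44 ± 0.40 SE (limma adjusted p = 0.44). It was −0.28 without the MDA-MB231 FBP1 array (adjusted p = 0.436) and 1.17 without the MDA-MB231 control (adjusted p = 0.0288). Between the FBP1 arrays alone AMOT differed by 1.40, and between the control arrays alone by −0.52. YAP1 differed by −0.12 ± 0.08, CCN1 by −0.13 ± 0.09, AMOTL1 by −0.13 ± 0.11, TEAD4 by 0.16 ± 0.11 and TEAD1 by 0.24 ± 0.11 (SE). TEAD1 passed without the Hs578T FBP1 array (0.40, limma adjusted p = 0.00582), and CCN1 turned to 0.09 without the MDA-MB231 control (adjusted p = 0.607). Without the MDA-MB231 FBP1 array 2 of the 10 genes passed, CCN2 and ANKRD1, where 21.4% of all genes did.

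The remaining Hippo genes show what surrounds the 10 in each line. Of the 7 genes of the kinase core, 4 passed in the limma fit, beside 40.8% of all tested genes. SAV1, the scaffold that joins the kinases, was 2.59-fold higher in MDA-MB231 (1.37 ± 0.09 SE, limma adjusted p = 0.000152), with 11.18 and 11.39 in MDA-MB231 with FBP1 and control, against 9.79 and 10.04 in Hs578T with FBP1 and control. LATS2 (0.74), the kinase that phosphorylates YAP, and STK4 (0.51), the upstream kinase MST1, were higher in MDA-MB231, and STK3 (−0.41), the kinase MST2, was lower. The STK3 call was near the threshold (limma adjusted p = 0.0439). It was lost with quantile normalization, median centring, no trend in the variance prior, all probe sets fitted and the line term alone. LATS1, MOB1A and MOB1B, at −0.08, 0.13 and −0.05, did not pass. The core's median line difference was 0.13. Fewer core genes passed without the MDA-MB231 FBP1 array, in a fit where fewer of all tested genes passed as well.

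Of 17 upstream regulators, 16 were tested and 12 passed, beside 40.8% of all tested genes. Of the 16 tested, 9 passed as higher in MDA-MB231, against 21.8% of all tested genes, and 3 as lower, against 19.0%. The largest differences were in genes lower there. FAT4, a giant cadherin, had 6.20 and 6.73 in MDA-MB231 with FBP1 and control, against 9.20 and 9.24 in Hs578T with FBP1 and control (−2.76 ± 0.14 SE, limma adjusted p = 4.82e-05). NF2 had 9.18 and 9.01 in MDA-MB231 with FBP1 and control, against 11.02 and 11.09 in Hs578T with FBP1 and control (−1.96 ± 0.11 SE, limma adjusted p = 6.87e-05). NF2 encodes merlin, which activates the kinases at the membrane, and MDA-MB231 is known to carry an inactivating mutation of it. WWC1, which encodes the merlin partner KIBRA, was higher in MDA-MB231 (1.06), and so was AJUBA (0.78), a LIM protein that restrains LATS kinases.

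Of 14 genes for partners of angiomotins and for enzymes of their turnover, 13 were tested and 6 passed, near the share of all genes (40.8%). The tankyrase gene TNKS, whose product marks angiomotins for degradation, was lower in MDA-MB231 (−1.26 ± 0.11 SE, limma adjusted p = 0.000402). The polarity gene PALS1 (1.08), the ubiquitin ligase gene NEDD4L (0.87) and the deubiquitinase gene USP9X (0.59) were higher. None of the 13 reached 1.5-fold with FBP1 in either line, with differences of −0.08 to 0.15 in MDA-MB231 and −0.18 to 0.22 in Hs578T. Few genes did: 0.627% of all tested genes in MDA-MB231 and 3.08% in Hs578T, in either direction. Among other TEAD and VGLL genes, 3 of 6 passed, beside the same share: VGLL3 (−0.76), a TEAD cofactor, was lower in MDA-MB231, and TEAD3 (0.44) and VGLL4 (0.34), a competitor of YAP for TEAD, were higher. VGLL3 was also 1.5-fold higher with FBP1 in Hs578T, at 10.67 against 10.02 in the control.

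Other genes known as YAP and TAZ targets also split between the lines. All 18 were tested and 16 passed in the limma fit, where 40.8% of all tested genes did. In MDA-MB231 7 were higher, against 21.8% of all genes, and 9 lower, against 19.0%, with a median difference of −0.04. IGFBP3, a secreted carrier of insulin-like growth factors, had 9.21 and 9.16 in MDA-MB231 with FBP1 and control, against 12.48 and 12.15 in Hs578T with FBP1 and control (−3.13 ± 0.11 SE, limma adjusted p = 1.10e-05). The matrix protein gene CCDC80 (−1.42) and the exchange factor gene DOCK5 (−0.94) were also lower in MDA-MB231, and FJX1, a secreted Golgi protein gene, was higher (1.39 ± 0.27 SE, limma adjusted p = 0.00856). Without the MDA-MB231 FBP1 array 7 of the 18 passed, and without the MDA-MB231 control array also 7, where 21.4% and 20.3% of all genes did. LATS2 and PTPN14 stand in this list and in a list above. Among other CCN genes, 2 of 3 tested passed (40.8% of all genes), CCN4 (−0.98) and CCN3 (−0.50), both lower in MDA-MB231 like CCN2. The fibroblast markers were lower in MDA-MB231 too, and their part in the differences of CCN2, IGFBP3 and CCDC80 was not tested.

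With FBP1 the log2 differences of the other targets in MDA-MB231 ran from −0.13 to 0.30, with 11 of 18 above 0 and a median of 0.06, where 48.2% of all tested genes lay above 0 with a median of −0.005, and none reached 1.5-fold. F3, which encodes tissue factor, stood at 0.30 and CRIM1 at 0.26, at percentiles 96.9 and 95.3, as high as CCN2. In Hs578T they ran from −0.19 to 1.17, with 14 of 18 above 0 and a median of 0.18, where 54.9% of all tested genes lay above 0 with a median of 0.02. FJX1 was the 1 gene past 1.5-fold, at 9.09 with FBP1 against 7.92 in the control in Hs578T. Of the 7 kinase core genes, 2 (STK4 at 0.16 and MOB1B at 0.08) lay above 0 in MDA-MB231 and 1 (LATS1 at 0.03) in Hs578T, with medians of −0.08 and −0.13. None of the 7 reached 1.5-fold in either line, where 0.627% of all tested genes did in MDA-MB231 and 3.08% in Hs578T.

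**Figure D4:**
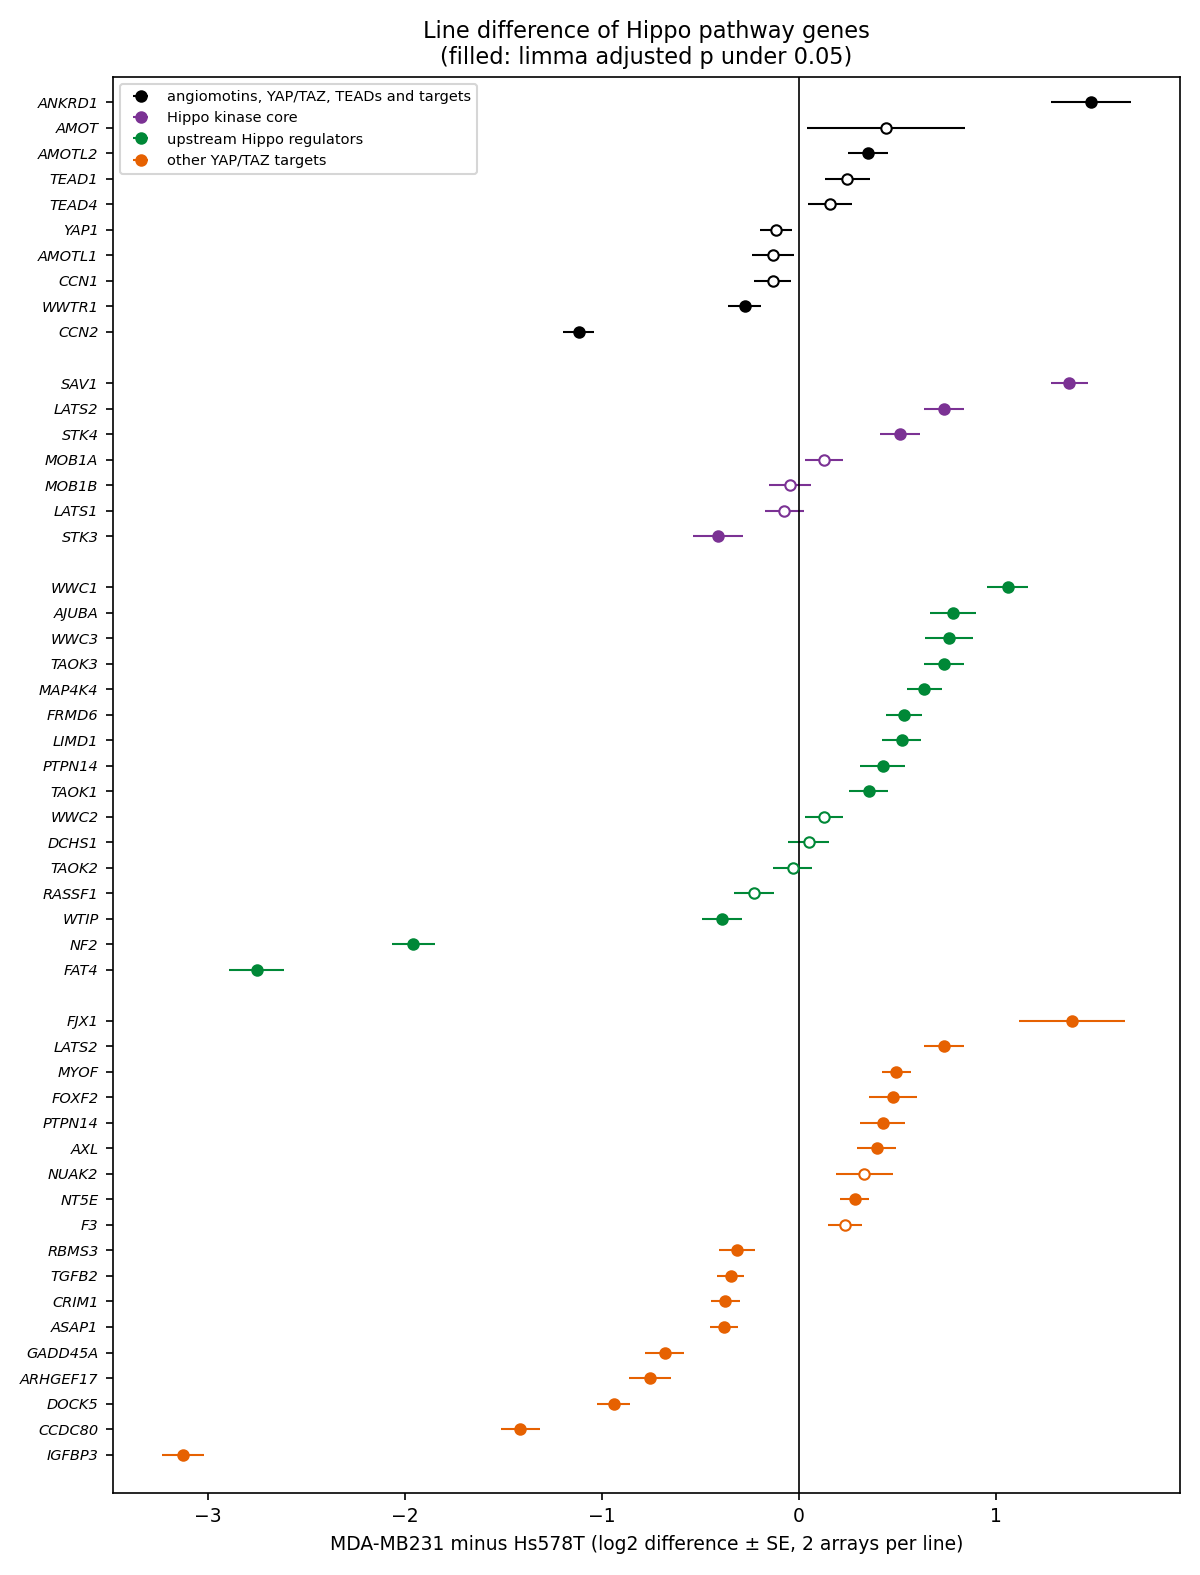
MDA-MB231 minus Hs578T (horizontal axis, log2 difference) for the 10 genes in black, the kinase core, the upstream regulators and other targets, with bars of 1 SE from the limma fit on 2 arrays per line and filled points at adjusted p under 0.05. ANKRD1 (1.48) and CCN2 (−1.12) are the outermost of the 10, and genes of each group lie on both sides of 0.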

How the data were processed

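RNA from 4 cultures was measured on 1 Affymetrix array each. The deposited table held log2 intensities of 33297 probe sets, with the log2 scale taken from the values. Per the submitters' processing notes, the authors used Affymetrix Expression Console 1.1.2800.28061; no source used here names how probes were summarized. Arrays had near-equal medians, so a change in total RNA per cell would be hidden. Of the probe sets, 19460 named 1 gene in the platform annotation, 1754 several and 12083 none; 19429 of the first matched a RefSeq gene. The highest-mean probe set was taken per gene, and genes dimmer than 6.16 on the log2 scale, the level below which 25% of probe set means lay, were dropped.

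FBP1 minus control is a difference of 2 arrays within a line, with no test. The line difference came from limma 3.58.1 (R 4.3.3), with line and construct terms, an intensity trend, 1 residual and 5.04 prior degrees of freedom and Benjamini-Hochberg adjustment over all 15946 genes. The fit was tested on simulated data with independent noise of equal size in all genes and no construct effect. That setting differs from these single cultures, so it does not check the p-values given here. The number of arrays limits precision.

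The genes, lists and tests were chosen with earlier results of these data known. Named genes were the 10 genes, FBP1, up to 4 called genes per list with the largest line difference, up to 2 per line past 1.5-fold with FBP1, and the 5 genes nearest to AMOT; others are given by value to complete a small list or as neighbours. Alternatives covered the filter, scaling, variance prior, probe sets, terms, size threshold and each array left out.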

Additional observations from a re-analysis of the deposited data

Results flagged for a closer look

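FBP1 minus control ran in opposite directions in the lines, and passed 1.5-fold in at least 1 of them, for 4 of the genes listed. AMOT differed by 1.45 in MDA-MB231 and −0.462 in Hs578T on the log2 scale. ANKRD1 differed by 0.344 in MDA-MB231 and −0.587 in Hs578T. The target gene FJX1 differed by −0.0563 in MDA-MB231 and 1.17 in Hs578T. The basal keratin gene KRT14 differed by −0.193 in MDA-MB231 and 0.768 in Hs578T. With 1 array per group, this contrast between the lines was not tested for any of the 4.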

How the results depend on the processing

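The 80 values of FBP1 minus control of the 10 genes under other scalings, probe set averaging and no filter each moved by less than the SD of all tested genes in that line, and none changed sign. Each of the 10 genes had 1 probe set and passed the filter. Probe set averaging and no filter therefore could not move these values, and only the scalings were a check. ANKRD1 in Hs578T fell inside 1.5-fold after quantile normalization, which left 0 of the 10 genes past it, as did a 2-fold threshold (0). At adjusted p under 0.05 and at least 2-fold, the line difference called 2 of the 10 genes, 1 of 7 kinase core genes and 3 of 18 other targets, beside 10.8% of all tested genes. With each array left out, the counts were 2 to 4, 2 to 4 and 7 to 15. Those fits had 3 arrays and a line term alone, and called 20.3% to 44% of all genes. Of 119 line differences of the 10 genes, 107 kept their direction and side of the threshold. The filter, variance prior, probe set and term settings left the size of a difference unchanged and could move only its adjusted p. With each array left out the AMOT difference ran from −0.284, reversed without the MDA-MB231 FBP1 array, to 1.17, and the CCN1 difference from −0.363 to 0.0932, reversed without the MDA-MB231 control. WWTR1 lost its call with no trend in the variance prior (adjusted p = 0.0958) and with all probe sets fitted (0.067). With the filter at the 50th percentile AMOT was left out and gave no value. No paired analysis was possible because the labels give no replicate numbers; the line and construct terms already match the arrays. No probe detection values were used, so dim values such as those of AMOT on 3 arrays are not shown to lie above background.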

Other observations

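X-linked genes other than AMOT were also higher with FBP1 in MDA-MB231, a pattern noticed in the data and given as values. Of 558 tested X-linked genes, 7 (1.25%) were at least 1.5-fold higher there, against 41 of 15388 other genes (0.266%). Without AMOT, 6 of 557 (1.08%) were. The other 6 were DIAPH2 (log2 difference 0.95), which encodes a formin of the actin cytoskeleton, the ubiquitin ligase gene RNF128 (0.93), the insulin receptor substrate gene IRS4 (0.81), NHSL2 (0.77), SH3BGRL (0.76) and BEX4 (0.67). SH3BGRL was much dimmer in the MDA-MB231 control (7.81) than in the Hs578T control (12.46). The median over X-linked genes was −0.006, beside −0.005 over the others, and 1 X-linked gene was 1.5-fold lower. In Hs578T, 8 X-linked genes (1.43%) were 1.5-fold higher, beside 1.39% of the others, and 10 were lower. These genes were chosen after their values were seen, and no test was made.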
